A study of Mus with 12 samples.

Results

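The main effect of the CTLA4 antibody was measured in all 12 liver tumours of the series, 6 from mice that received it and 6 from mice that did not. The mice with the antibody were the 3 of the group Anti CTLA4 and the 3 of the group Anti PDL1+CTLA4, which received both antibodies. The mice without it were the 3 of the group Ctrl IgG, given a control immunoglobulin, and the 3 of the group Anti PDL1. The presence of the PDL1 antibody entered the model as a block, so that Anti CTLA4 was set against Ctrl IgG, Anti PDL1+CTLA4 was set against Anti PDL1, and the 2 differences were averaged. All 770 genes of the nCounter mouse IO360 panel were included. This panel counts barcoded probes hybridised to RNA, here total RNA from formalin-fixed, paraffin-embedded murine tumours labelled MYC-HCC (hepatocellular carcinoma, a cancer of liver cells). The sources used here do not give the driver construct, the strain, sex and age of the mice, the antibody doses and clones or the time of sampling, nor do they state whether antibody-treated mice also received control IgG.

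CTLA4 is an inhibitory receptor of T cells. It competes with the costimulatory receptor CD28 for the ligands CD80 and CD86 on antigen-presenting cells, and it is carried at high levels by regulatory T cells, which depend on the transcription factor FOXP3. An antibody that blocks CTLA4 leaves more ligand to CD28 and can, depending on its constant region, deplete cells that carry CTLA4. PDL1, the product of Cd274, is a ligand of the separate inhibitory receptor PD-1, which Pdcd1 encodes.

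Values are the deposited normalized counts, in which low values are listed as 20, called the floor here. A value of 20 is therefore an upper limit, and it differs between libraries: a gene at the floor could hold up to 20 to 52.5 normalized counts, depending on the library, with anti-CTLA4 and up to 20 to 42.0 without it. Counts above the floor, recovered from the values, totalled 439149 to 813701 per library with anti-CTLA4 and 480282 to 864464 without it. Genes at the floor numbered 84 to 210 per library with the antibody and 49 to 151 without it. Of the 770 genes, 519 exceeded the floor throughout and 25 were listed at it in every library. In bulk tumour RNA, fewer cells of a type and less RNA per cell cannot be told apart.

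Tumours of both arms differed in liver and proliferation genes, and these differences were not spread evenly over the arms. The liver list held 6 measured genes of 23 listed, among them Apoe, Arg1 and Fbp1. Its score, the mean log2(value + 1) of its genes, was 11.70, 12.22 and 10.09 in Anti CTLA4 1 to 3, against 10.31, 9.87 and 10.07 in Ctrl IgG 1 to 3. It was 10.20, 11.30 and 10.26 in Anti PDL1+CTLA4 1 to 3, against 9.90, 12.17 and 10.62 in Anti PDL1 1 to 3. The score of 18 proliferation genes was lowest in the libraries richest in liver RNA, with scores of 5.82 for Anti CTLA4 2, 6.78 for Anti PDL1 2 and 8.11 for Anti CTLA4 1. The same 3 libraries and Anti PDL1+CTLA4 2 were those that the authors had scaled up most, with factors of 2.62, 2.10, 2.25 and 1.79, against 0.562 to 1.23 in the other 8. The summed level of the liver list ran from 39148 to 381659 normalized counts with anti-CTLA4 and from 32662 to 523063 without it, and no liver marker was at the floor in any library. The part of these libraries in the results below is given by values with and without them.

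**Figure D1:**
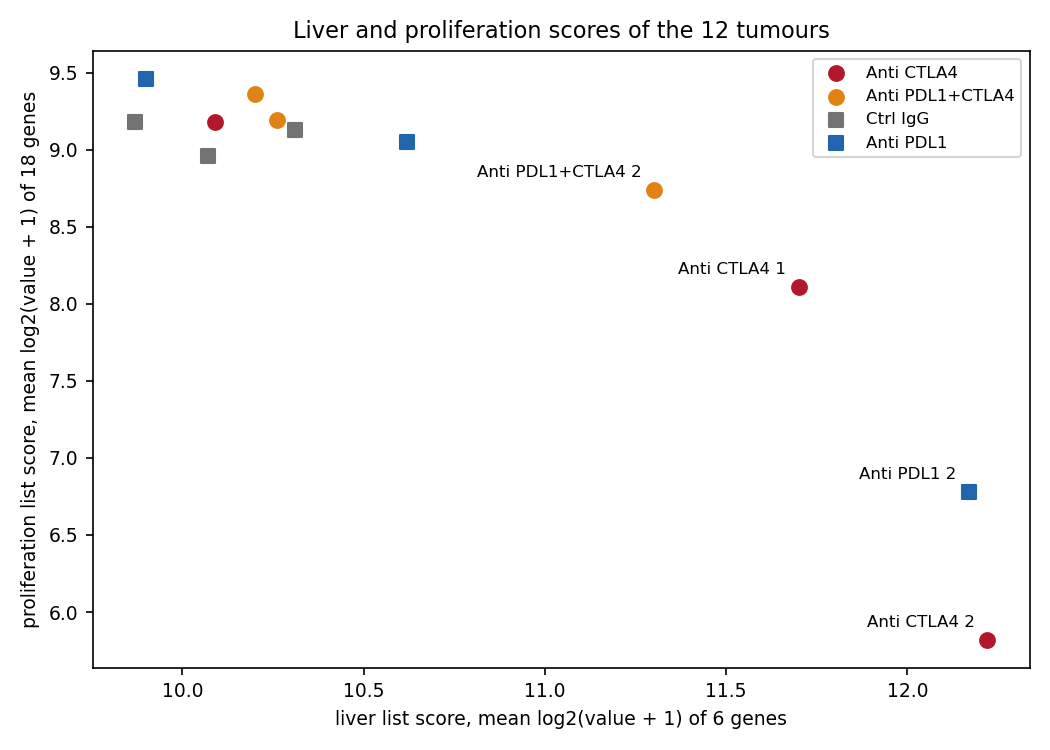
Score of 6 liver genes (horizontal axis) against the score of 18 proliferation genes (vertical axis) in each tumour, both as mean log2(value + 1); circles are libraries with anti-CTLA4 and squares are libraries without it. Anti CTLA4 2 and Anti PDL1 2 lie lowest on the proliferation axis, at 5.82 and 6.78, 1 in each arm.

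No gene passed the threshold for the main effect of the CTLA4 antibody. In limma, 0 of 770 genes (0%) had an adjusted p under 0.05, and the smallest adjusted p was 0.85. At an unadjusted p under 0.05 there were 43 genes, of which 12 were higher with the antibody (1.56% of the panel) and 31 were lower (4.03%). The sum, 5.58% of the panel, is close to the 5% that this threshold admits when no gene differs. In no gene did the 6 listed values with the antibody lie apart from the 6 without it. The median 95% confidence interval of a gene reached 0.66 log2 units to each side, and that of a gene above the floor in all libraries reached 0.73. In a fit with 1 mean per group, limma called 20 genes (2.6%) between Anti CTLA4 and Ctrl IgG, all lower and all with libraries at the floor, with 165 at an unadjusted p under 0.05. It called 0 genes (0%) between Anti PDL1+CTLA4 and Anti PDL1, with 5 at an unadjusted p under 0.05. The pooled values that follow are differences that did not pass the test, given with their errors.

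None of the 6 genes of the CTLA4 axis (Ctla4, Cd28, Cd80, Cd86, Icos and the Icos ligand gene Icosl) passed the test. Ctla4 had 20, 20 and 34.6 normalized counts in Anti CTLA4 mice, against 33.0, 52.9 and 34.2 in Ctrl IgG mice. It had 32.3, 20 and 39.5 in Anti PDL1+CTLA4 mice, while each of the 3 Anti PDL1 mice was at 20. The listed values of Ctla4 thus lay in opposite order in the presence and absence of anti-PDL1, with 3 libraries at the floor in each arm, and the fitted difference was -0.07 log2 units (SE 0.271, limma adjusted p = 0.944). Cd28, the competing receptor, had a difference of 0.26 log2 units (SE 0.325, limma adjusted p = 0.866).

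Of the shared ligands, Cd86 had 283, 199 and 203 normalized counts in Anti CTLA4 mice, against 156, 178 and 155 in Ctrl IgG mice. It had 230.4, 267 and 276 in Anti PDL1+CTLA4 mice, against 183, 384 and 168 in Anti PDL1 mice. Each of the 6 tumours with anti-CTLA4 lay above 5 of the 6 without it, and Anti PDL1 2 lay above all of them (log2 fold change 0.32, SE 0.215, limma adjusted p = 0.866). Cd80 ran from 45.9 to 74.2 normalized counts with the antibody and from 44.0 to 73.5 without it, with a difference of -0.06 log2 units (SE 0.174, limma adjusted p = 0.932). Icos, a CD28 relative that activated T cells carry, had a difference of 0.43 log2 units (SE 0.456, limma adjusted p = 0.866). Foxp3 and Il2ra, the defining markers of regulatory T cells, were at the floor in all 12 libraries. Without Anti PDL1 2 the difference was 0.51 log2 units for Cd86 (SE 0.127, limma adjusted p = 0.144), 0.75 for Icos (SE 0.372), 0.40 for Cd28 (SE 0.324) and -0.14 for Ctla4 (SE 0.293). The regulatory T cell list (6 measured genes of 9) summed to 120 to 156 normalized counts with anti-CTLA4 and to 132 to 189 without it, and each sum includes floor values.

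Slamf7 had the smallest p of the panel. It encodes a surface receptor of activated lymphocytes, plasma cells and macrophages. Its values were 58.5, 63.0 and 57.1 normalized counts in Anti CTLA4 mice, against 21.0, 20 and 30.9 in Ctrl IgG mice. They were 83.6, 87.8 and 59.2 in Anti PDL1+CTLA4 mice, against 38.8, 77.7 and 30.8 in Anti PDL1 mice. All 6 libraries with the antibody lay above 5 of the 6 without it, and Anti PDL1 2 overlapped them. The mean was 68.2 ± 13.8 with anti-CTLA4 and 36.5 ± 21.4 without it (SD, n = 6 each). The log2 fold change was 1.02 (SE 0.236, 95% confidence interval 0.49 to 1.54) with a limma adjusted p of 0.85. It was 1.30 (SE 0.324) between Anti CTLA4 and Ctrl IgG and 0.73 (SE 0.324) between Anti PDL1+CTLA4 and Anti PDL1. Without Anti PDL1 2, Slamf7 was the 1 gene of the panel past the threshold, with a difference of 1.22 log2 units (SE 0.151, limma adjusted p = 0.0139). That library, the one that overlapped, was singled out after seeing the data. With any other single library left out no gene passed. Without the 4 libraries of high factor Slamf7 had a log2 fold change of 1.11. Its lowest values lie close to the floor, and with a common floor at 52.5 normalized counts the log2 fold change was 0.26.

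Prdm1, which encodes BLIMP1, a repressor that shapes plasma cells and terminally differentiated effector T cells, had the next smallest p among genes above the floor in at least 9 libraries. It had 76.4, 84.0 and 64.6 normalized counts in Anti CTLA4 mice, against 53.2, 57.4 and 44.2 in Ctrl IgG mice. It had 58.7, 64.5 and 70.0 in Anti PDL1+CTLA4 mice, against 30.9, 60.9 and 30.8 in Anti PDL1 mice. In 5 of 6 libraries with the antibody Prdm1 lay above every library without it. The log2 fold change was 0.62 (SE 0.18, limma adjusted p = 0.85), with 0.72 (SE 0.263) among the mice given anti-PDL1 and 0.53 (SE 0.263) among the others.

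Pfkfb3, Dusp5, Tgfbr2 and Ccl8 also had differences of like size in both strata, that is, among the mice given anti-PDL1 and among the mice not given it. Pfkfb3 makes the activator of the glycolytic step of phosphofructokinase. It averaged 371 ± 75.3 normalized counts with anti-CTLA4 and 254 ± 71.4 without it (SD, n = 6 each), with log2 fold changes of 0.49 in the presence and 0.66 in the absence of anti-PDL1. Dusp5, a phosphatase that MAP kinase signalling induces and that acts back on ERK, averaged 111 ± 15.2 and 83.4 ± 16.0 normalized counts in the same order of arms, and 5 of 6 libraries with the antibody lay above all libraries without it. Tgfbr2, a TGF-beta receptor chain, averaged 217 ± 31.1 with anti-CTLA4 and 162 ± 37.4 without it, and 4 of 6 libraries lay above all of the other arm. Ccl8, a chemokine that attracts monocytes and other leukocytes, averaged 111 ± 52.6 with anti-CTLA4 and 64.3 ± 23.7 without it. The pooled log2 fold changes were 0.57 (SE 0.22) for Pfkfb3, 0.41 (SE 0.166) for Dusp5, 0.45 (SE 0.187) for Tgfbr2 and 0.74 (SE 0.291) for Ccl8, each with a limma adjusted p of 0.85.

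**Figure D2:**
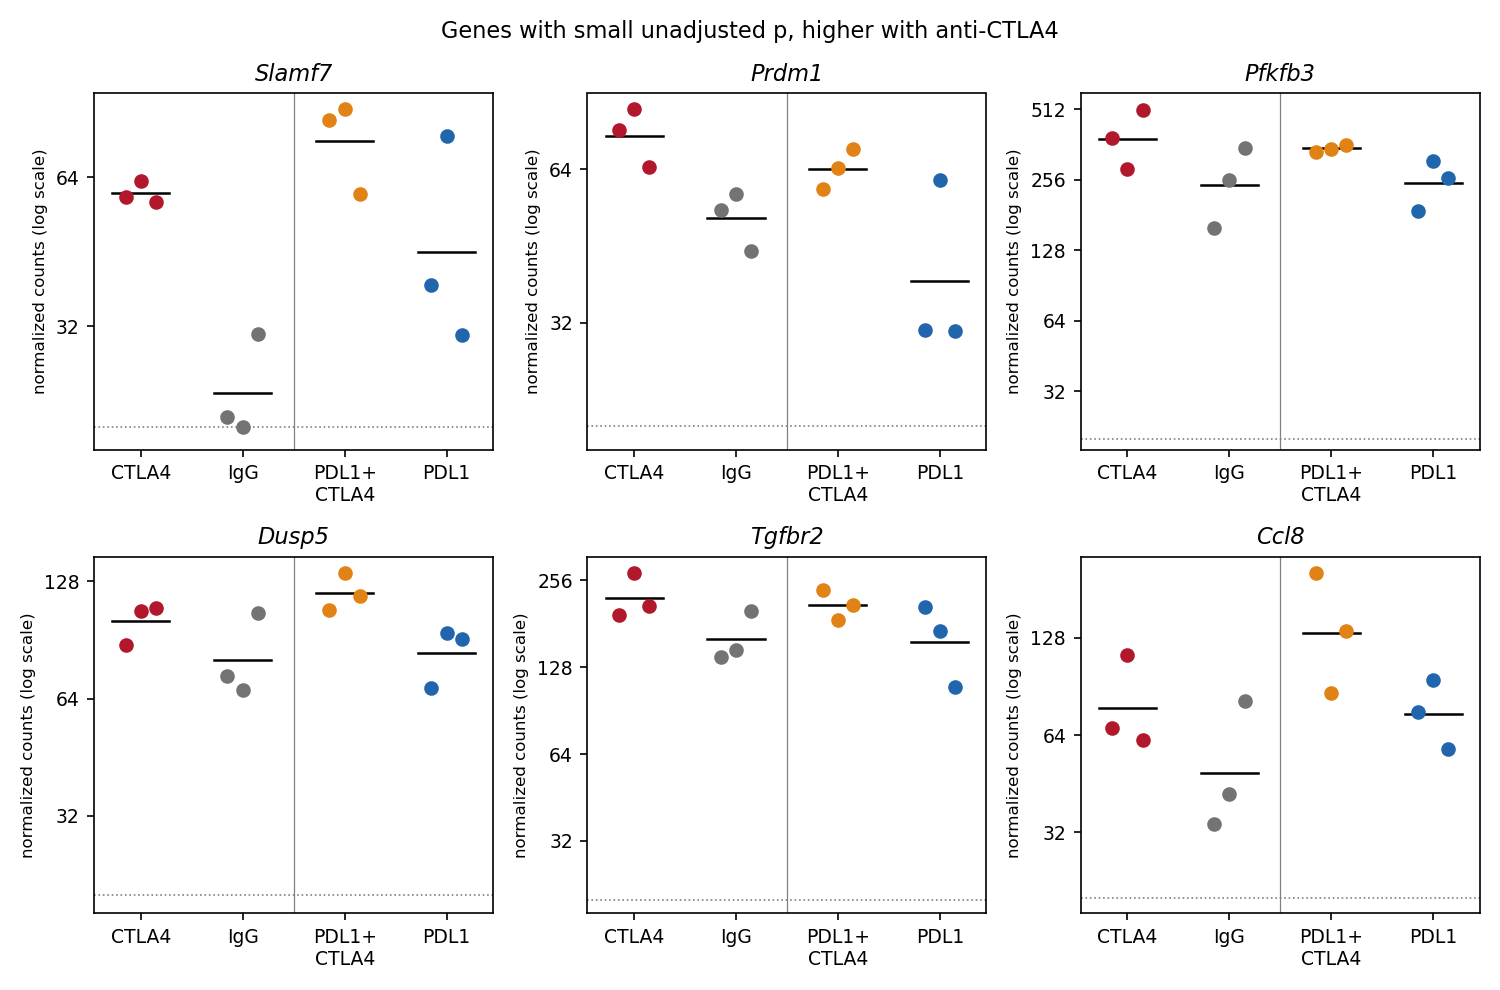
Normalized counts (log axis) of 6 genes in every tumour, 3 mice per group, with Anti CTLA4 left of Ctrl IgG and Anti PDL1+CTLA4 left of Anti PDL1; horizontal bars are geometric means and the dotted line is the floor of 20. For Slamf7 the 6 libraries with anti-CTLA4 sit between 57.1 and 87.8, and Anti PDL1 2, at 77.7, is the 1 library without it in that range.

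Of the other 6 genes that were higher at an unadjusted p under 0.05, 5 had the larger difference among mice not given anti-PDL1. The 6 were Dll4, Cd84, Vsir, Hes1, and, named after their values were seen, Tlr1 and Tnfrsf11a. Dll4, a Notch ligand of sprouting endothelium, had 351, 328 and 265 normalized counts in Anti CTLA4 mice, against 129, 168 and 162 in Ctrl IgG mice. It had 167, 219 and 198 in Anti PDL1+CTLA4 mice, against 153, 239.5 and 164 in Anti PDL1 mice. Its log2 fold change was 1.03 (SE 0.235) in the absence and 0.09 (SE 0.235) in the presence of anti-PDL1. The difference between these strata did not pass the interaction test (limma adjusted p = 0.345). For Hes1, a target of Notch signalling, the values were 0.73 (SE 0.319) and 0.28 (SE 0.319) in the same order of strata. Cd84, a receptor of the SLAM family on myeloid cells, had 0.75 and 0.18, and Vsir, which encodes the inhibitory molecule VISTA, had 0.60 and 0.21. Tnfrsf11a, the receptor RANK, had log2 fold changes of 1.27 in the absence and 0.19 in the presence of anti-PDL1. Tlr1, a receptor for bacterial lipopeptides, was the exception, with 0.26 and 0.60.

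Among the 31 genes that were lower at an unadjusted p under 0.05, Ccnd3 and Slc11a1 were the 2 that lay above the floor in every library. Ccnd3, the cell cycle gene of cyclin D3, had 814, 633 and 659 normalized counts in Anti CTLA4 mice, against 1840, 1597 and 1711 in Ctrl IgG mice. It had 1341, 371 and 1294 in Anti PDL1+CTLA4 mice, against 1395, 750.1 and 1055 in Anti PDL1 mice. The Anti CTLA4 values lay below all of Ctrl IgG, while the 2 groups given anti-PDL1 overlapped (pooled log2 fold change -0.78, SE 0.346, limma adjusted p = 0.85). In a fit of the mice without anti-PDL1 alone, Ccnd3 was among 10 lower genes past the threshold. Slc11a1, a metal transporter of the macrophage phagosome, averaged 673 ± 202 normalized counts with anti-CTLA4 and 921 ± 126 without it (SD, n = 6 each), with a difference of -0.50 log2 units (SE 0.221, limma adjusted p = 0.85).

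The other 29 lower genes had libraries at the floor, so that their fitted differences are differences of listed values and not estimates of a change. Il21r, the receptor of the T cell cytokine IL-21, had 20, 20 and 40.2 normalized counts in Anti CTLA4 mice, against 50.8, 63.5 and 49.7 in Ctrl IgG mice. It had 43.3, 20 and 33.5 in Anti PDL1+CTLA4 mice, against 38.1, 48.3 and 33.2 in Anti PDL1 mice. Its 3 floor values were those of Anti CTLA4 1 and 2 and Anti PDL1+CTLA4 2, the libraries of the arm whose own limits were the highest, at 35.9 to 52.5 normalized counts. Wnt4, a Wnt ligand, and Ctsw, a protease of cytotoxic lymphocytes, were likewise at the floor in Anti CTLA4 1 and 2, with fitted differences of -0.72 and -0.62 log2 units. Ccl1, a chemokine of activated T cells, ran from 20 to 47.2 normalized counts with anti-CTLA4 and from 27.6 to 57.9 without it, with 3 libraries of the first arm at the floor.

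Twist2, a transcription factor of mesenchymal cells, had the lowest fitted difference of the panel and is named after its values were seen. It had 60.7, 20 and 20 normalized counts in Anti CTLA4 mice, against 58.8, 72.0 and 78.4 in Ctrl IgG mice. It had 20, 20 and 28.6 in Anti PDL1+CTLA4 mice, against 26.3, 92.5 and 51.7 in Anti PDL1 mice. The fitted differences of Twist2 were alike in both strata, at -1.12 log2 units in the presence and -1.22 in the absence of anti-PDL1, with Anti CTLA4 1 as the high library of its arm. The pooled difference was -1.17 (SE 0.338, limma adjusted p = 0.85), and Twist2 was the 1 gene to pass after quantile normalization (limma adjusted p = 0.032).

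A further set of lower genes separated Ctrl IgG from all 3 antibody groups rather than the 6 mice with anti-CTLA4 from the 6 without. Of the 31 lower genes, 23 were at the floor in at least 6 libraries, and in 16 all 3 Anti PDL1 libraries lay at the floor while no Ctrl IgG library did. Il6, a cytokine of inflammation, was at the floor in all 6 libraries with anti-CTLA4 and in all 3 of Anti PDL1, and had 34.7, 33.2 and 36.4 normalized counts in Ctrl IgG. Il17a, Ifng, Cd40lg, Jup, Pnoc and Tnfrsf17 had the same layout, with Ctrl IgG values between 23.2 and 47.2. Dkk1, a secreted Wnt inhibitor, had 20, 20 and 21.5 in Anti CTLA4 mice, against 48.4, 73.7 and 56.3 in Ctrl IgG mice. It had 20, 20 and 20.7 in Anti PDL1+CTLA4 mice, against 20 in each Anti PDL1 mouse. Cd70, which engages CD27 on T cells, was at the floor in all 6 libraries with anti-CTLA4. It had 41.1, 58.5 and 49.7 in Ctrl IgG and 20, 20 and 25.8 in Anti PDL1. Since low values of both arms are limits, no fold change is given for these genes.

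**Figure D3:**
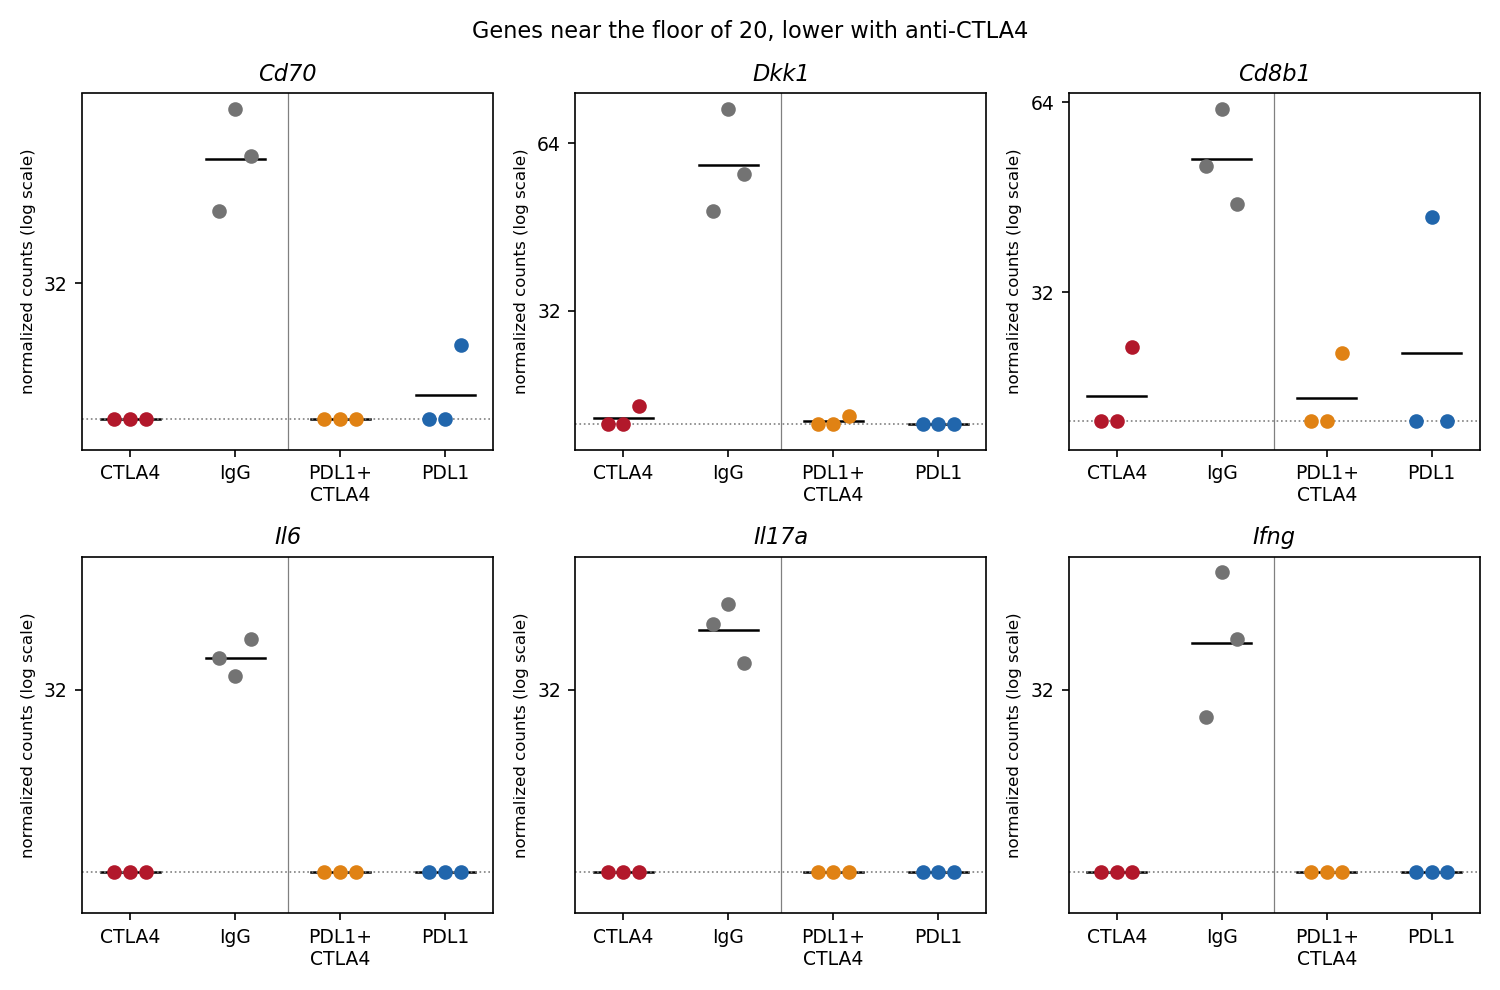
Normalized counts (log axis) of 6 genes in every tumour, 3 mice per group, with Anti CTLA4 left of Ctrl IgG and Anti PDL1+CTLA4 left of Anti PDL1; horizontal bars are geometric means and the dotted line is the floor of 20. Ctrl IgG lies above the floor for all 6 genes, at 29.8 to 73.7, while 5 of the 6 genes are at or within 6 normalized counts of the floor in every Anti PDL1 library and Cd8b1 reaches 42.0 in Anti PDL1 2.

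These genes also carried the interaction, the difference between the effect of anti-CTLA4 among mice given anti-PDL1 and among mice not given it. In limma 10 of 770 genes (1.3%) passed the interaction test: Il6, Il17a, Tnfrsf17, Pnoc, Dkk1, Cd70, Fam124b, Jup, Ifng and Tcl1, of which Fam124b and Tcl1 are named after their values were seen. In all 10 the mean of the listed Ctrl IgG values lay above the listed value of every other library. For Il6 the Ctrl IgG values of 33.2 to 36.4 lie below the floor limits of Anti PDL1 2, at 42.0, and of Anti CTLA4 2, at 52.5, so that those libraries could hold more. The calls are therefore of listed values, and the interaction sizes given in a later section estimate no change. Il6 was listed at 20 in all 9 antibody libraries, so that its residual spread came from the 3 Ctrl IgG values alone. With a common floor 0 genes passed, and with 1 library left out in turn the count ran from 5, without Anti CTLA4 2 or Anti PDL1+CTLA4 3, to 24, without Ctrl IgG 3.

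No T cell or cytotoxic gene passed the test. Of 14 measured T cell markers, 1 (Cd8b1) was lower at an unadjusted p under 0.05, against 4.03% of the panel. Of the same markers 7 had a positive log2 fold change, and the median was 0.01, against 0.09 over all 770 genes. Cd4 had a difference of 0.33 log2 units (SE 0.21, limma adjusted p = 0.866), with 0.30 in the presence and 0.36 in the absence of anti-PDL1. Cd3e, a chain of the T cell receptor complex, had 92.2, 115 and 31.8 normalized counts in Anti CTLA4 mice, against 37.1, 53.4 and 53.0 in Ctrl IgG mice. It had 52.8, 52.0 and 40.5 in Anti PDL1+CTLA4 mice, against 29.6, 153 and 41.8 in Anti PDL1 mice. Its 3 highest values were those of Anti PDL1 2, Anti CTLA4 2 and Anti CTLA4 1, the libraries with the highest liver scores.

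The CD8 chains were near the floor. Cd8b1 had 20, 20 and 26.2 in Anti CTLA4 mice, against 50.8, 62.4 and 44.2 in Ctrl IgG mice, and 20, 20 and 25.6 in Anti PDL1+CTLA4 mice, against 20, 42.0 and 20 in Anti PDL1 mice. Cd8a was at the floor in 5 of 6 libraries with anti-CTLA4 and in 3 of 6 without it. Among 10 cytotoxic effector genes 2, Ctsw and Ifng, were lower at an unadjusted p under 0.05, against 4.03% of the panel. Both had libraries at the floor, so that their differences are of listed values, and the median of the list was -0.11. Gzmb, a granzyme of killer cells, had a fitted difference of -0.18 log2 units (SE 0.236) and Prf1, perforin, of -0.06 (SE 0.106), with 8 of 12 libraries at the floor. Of 14 inhibitory receptors and ligands 0 passed, with Lag3 at a difference of 0.41 log2 units (SE 0.289, limma adjusted p = 0.866) and Pdcd1 at a fitted difference of 0.06 (SE 0.324, limma adjusted p = 0.976). B and plasma cell markers had a median of -0.11 over 9 genes. Of these 2, Pnoc and Tnfrsf17, were lower at an unadjusted p under 0.05, against 4.03% of the panel. Both were at the floor in every library of the antibody groups.

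The lists of antigen presentation, interferon response and T cell attracting chemokines had the highest medians among immune lists, and no member passed. The MHC class I list (17 genes) had a median difference of 0.64 log2 units with 14 members positive, and the type I interferon list (19 genes) had 0.41 with 17 positive. The interferon-gamma list (16 genes) had 0.38 with 13 positive, the MHC class II list (9 genes) 0.37 with 6 positive, and the list of T cell attracting chemokines (15 genes) 0.39 with 11 positive. Over all 770 genes the median was 0.09, and 58.6% were positive. Among the 519 genes above the floor everywhere the median was 0.23 and 74.6% were positive, a set to which 13 of the 17 MHC class I genes and 17 of the 19 type I interferon genes belong. Among mice not given anti-PDL1 the medians were 1.56 for MHC class I, 0.97 for type I interferon, 0.80 for interferon-gamma and 0.76 for MHC class II. Among mice given anti-PDL1 they were -0.10, -0.26, -0.05 and 0.02 in the same order of lists. The 519 genes above the floor had medians of 0.51 in the absence and -0.07 in the presence of anti-PDL1. The values among mice given anti-PDL1 rested on 1 library: without Anti PDL1 2 they were 0.63, 0.57, 0.40 and 0.89 for the 4 lists and 0.24 for the 519 genes. The pooled medians were then 1.15 for MHC class I, 0.83 for type I interferon, 0.57 for interferon-gamma, 0.67 for MHC class II and 0.78 for T cell attracting chemokines, against 0.43 for the 519 genes. That exclusion leaves the liver-rich libraries Anti CTLA4 1 and 2 in the other arm. The MHC class I score was 9.56 and 9.19 in those libraries and 7.76 in Anti CTLA4 3, against 7.58, 7.38 and 7.35 in Ctrl IgG 1 to 3.

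Psmb9, a subunit of the immunoproteasome that cuts peptides for class I presentation, shows the values behind these medians. It had 1922, 850.4 and 426 normalized counts in Anti CTLA4 mice, against 172, 122 and 132 in Ctrl IgG mice. It had 724, 1203 and 403 in Anti PDL1+CTLA4 mice, against 176, 4274 and 450.1 in Anti PDL1 mice. All 3 Anti CTLA4 libraries lay above all 3 of Ctrl IgG, whereas Anti PDL1 2 exceeded every other library. The pooled log2 fold change was 1.33 (SE 0.813, limma adjusted p = 0.866), and 2.06 (SE 0.489, limma adjusted p = 0.144) without Anti PDL1 2. Tap1, which carries peptides into the endoplasmic reticulum, had 1.28 (SE 0.785) with all libraries and 1.98 (SE 0.485) without that library.

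H2-Ab1, a class II chain that presents peptides to CD4 T cells, had the same layout. It had 1807, 591 and 479 normalized counts in Anti CTLA4 mice, against 184, 156 and 245 in Ctrl IgG mice. It had 2740, 2795 and 1200 in Anti PDL1+CTLA4 mice, against 462, 7402 and 2590 in Anti PDL1 mice. Its log2 fold change was 2.06 (SE 0.914) in the absence and 0.02 (SE 0.914) in the presence of anti-PDL1 (interaction, limma adjusted p = 0.401). Without Anti PDL1 2 the pooled difference of H2-Ab1 was 1.56 log2 units (SE 0.543, limma adjusted p = 0.187).

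Cxcl9 is an interferon-induced chemokine that draws T cells through CXCR3, and its log2 fold change was 0.99 (SE 0.977) in the presence and 1.51 (SE 0.977) in the absence of anti-PDL1. It had 283, 78.7 and 113 normalized counts in Anti CTLA4 mice, against 46.0, 48.4 and 47.5 in Ctrl IgG mice. It had 304, 201 and 198 in Anti PDL1+CTLA4 mice, against 31.5, 712 and 66.4 in Anti PDL1 mice. All 6 libraries with anti-CTLA4 lay above 5 of the 6 without it, and Anti PDL1 2 lay above all. The log2 fold change was 1.25 (SE 0.662, limma adjusted p = 0.866), and 1.86 (SE 0.361, limma adjusted p = 0.143) without Anti PDL1 2. Cd274 had a difference of 0.46 log2 units (SE 0.385, limma adjusted p = 0.866), with its highest value, 424, in Anti PDL1 2.

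All 16 macrophage and 9 endothelial markers belong to the 519 genes above the floor everywhere, of which 74.6% had positive differences. Of the 16 macrophage markers 15 were positive, with a median of 0.35 and a score of 7.70 to 8.77 with anti-CTLA4 and of 7.44 to 9.21 without it. Cd68, a pan-macrophage marker, had a difference of 0.03 log2 units (SE 0.297, limma adjusted p = 0.993). The macrophage median was 0.74 in the absence and -0.05 in the presence of anti-PDL1, and without Anti PDL1 2 the second was 0.42. Of the 9 endothelial markers 8 were positive, with a median of 0.47, which was 1.01 in the absence and 0.04 in the presence of anti-PDL1, or 0.29 without Anti PDL1 2. Among them Angpt2, a vessel-destabilising ligand of activated endothelium, had 96.7, 108 and 257 normalized counts in Anti CTLA4 mice, against 67.7, 105 and 94.9 in Ctrl IgG mice. It had 162, 78.9 and 224 in Anti PDL1+CTLA4 mice, against 106, 77.7 and 79.9 in Anti PDL1 mice. Its log2 fold change was 0.70 in the presence and 0.66 in the absence of anti-PDL1, and 0.68 overall (SE 0.315, limma adjusted p = 0.866). The neutrophil list (13 genes) had a median of 0.16. Its member S100a9, a calprotectin chain, had 878 normalized counts in Anti CTLA4 3 and at most 267 in any other library.

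Proliferation genes had the lowest median of the lists, -0.42 over 18 genes with 3 positive. The median was -1.52 between Anti CTLA4 and Ctrl IgG and 0.78 between Anti PDL1+CTLA4 and Anti PDL1. Without Anti PDL1 2 the second was -0.15 and the pooled median -0.95. Mki67, a marker of cycling cells, had 1214, 57.7 and 2327 normalized counts in Anti CTLA4 mice, against 2521, 2152 and 1251 in Ctrl IgG mice. It had 3770, 2612 and 2539 in Anti PDL1+CTLA4 mice, against 4608, 779.5 and 3495 in Anti PDL1 mice. The lowest Mki67 values of the series were those of Anti CTLA4 2 and Anti PDL1 2, 1 in each arm (pooled log2 fold change -0.73, SE 0.887, limma adjusted p = 0.866). The liver list had medians of 1.62 in the absence and -0.44 in the presence of anti-PDL1. Here too the second rested on Anti PDL1 2, without which it was 0.18, with a pooled liver median of 0.98 in place of 0.52. Arg1, a urea cycle enzyme of hepatocytes that some macrophages also carry, differed by 2.68 (SE 1.14) and -0.96 (SE 1.14) log2 units in that order of strata. Myc ran from 119.8 to 215 normalized counts with anti-CTLA4 and from 80.6 to 523 without it (log2 fold change 0.15, SE 0.396, limma adjusted p = 0.917). The sources used here do not say whether its probe reads a driver transgene.

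**Figure D4:**
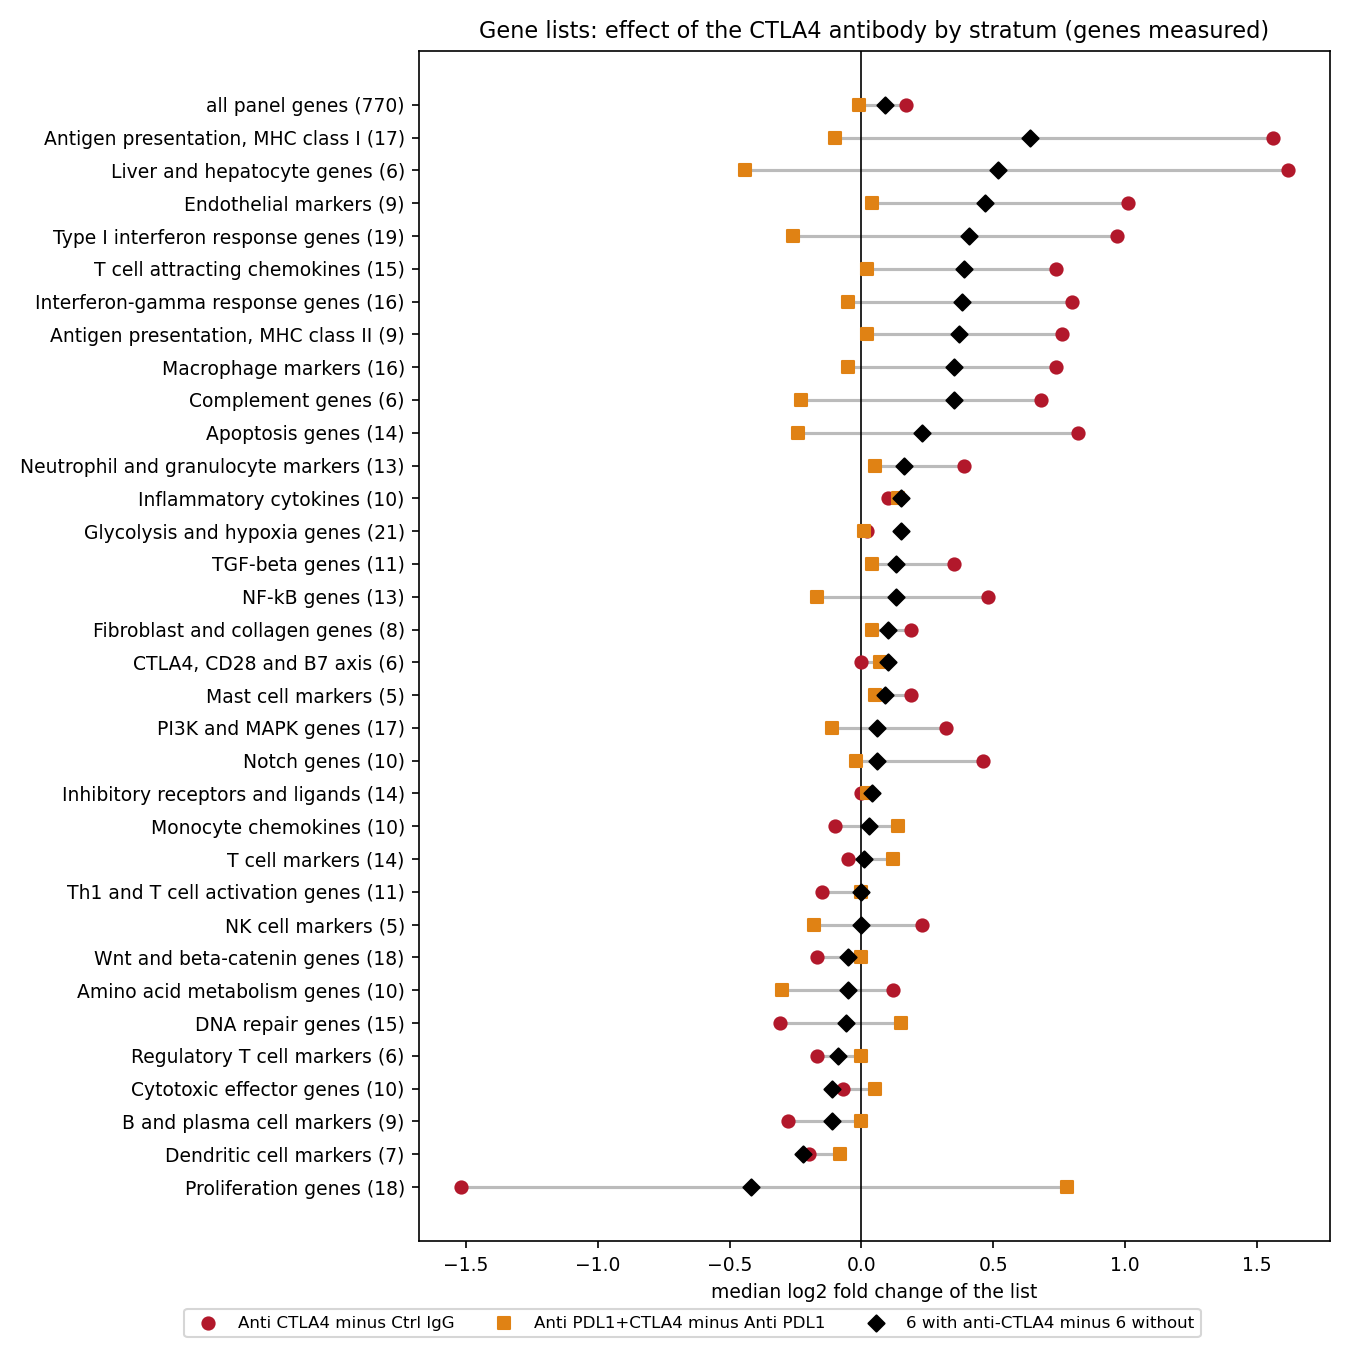
Median log2 fold change of each gene list (horizontal axis; genes measured in brackets) for Anti CTLA4 over Ctrl IgG (circles), for Anti PDL1+CTLA4 over Anti PDL1 (squares) and for the 6 libraries with anti-CTLA4 over the 6 without (diamonds). The strata are farthest apart for proliferation genes, at -1.52 and 0.78, and for liver genes, at 1.62 and -0.44, where Anti PDL1 2 is among the 12 libraries plotted.

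With the liver score as a covariate the median of MHC class I was 0.05, of type I interferon 0.04, of interferon-gamma and macrophage lists 0.13 each and of proliferation genes 0.18, and 0 genes passed. Without the 4 libraries of high factor, where the liver list itself was at -0.07, these medians were 0.25, 0.40, 0.25, 0.31 and 0.02 in the same order, again with 0 genes past the threshold. The MHC class II median was 0.15 with the covariate and 0.50 without these 4 libraries, and that of endothelial markers was 0.24 and 0.45. When each library was scaled to the same median, the value for all 770 genes was -0.18 in place of 0.09. The lists moved with it, to 0.38 for MHC class I and -0.69 for proliferation genes. Several lists changed sign by this common shift. Among them were neutrophil markers, at -0.10, the CTLA4 axis, at -0.17, T cell markers, at -0.25, and inhibitory receptors and ligands, at -0.23. The median of genes above the floor everywhere went from 0.23 to -0.04. The MHC class II, interferon-gamma and type I interferon lists stayed positive, at 0.10, 0.12 and 0.14.

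The 2 strata of the comparison share no library, and gene by gene they pointed in opposite directions more often than in the same. Of the 519 genes above the floor everywhere, 151 (29.1%) had the same sign in both strata, 112 higher and 39 lower. Without Anti PDL1 2 the count was 398 (76.7%), 328 higher and 70 lower. Without all 4 libraries of high factor, which leaves a single Anti CTLA4 library, it was 265 (51.1%). The removal of Anti PDL1 2 alone takes the most liver-rich library from the arm without anti-CTLA4 and leaves Anti CTLA4 1 and 2 in the other. Without it, 177 genes had an unadjusted p under 0.05, 136 higher and 41 lower, against 43 with all libraries. Prdm1 then had a difference of 0.76 log2 units (SE 0.137, limma adjusted p = 0.129) and Dll4 of 0.70 (SE 0.178, limma adjusted p = 0.144). In the other arm, leaving out Anti CTLA4 1 gave 36 genes at an unadjusted p under 0.05, and leaving out Anti CTLA4 2 gave 27. No gene passed the threshold in either case.

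**Figure D5:**
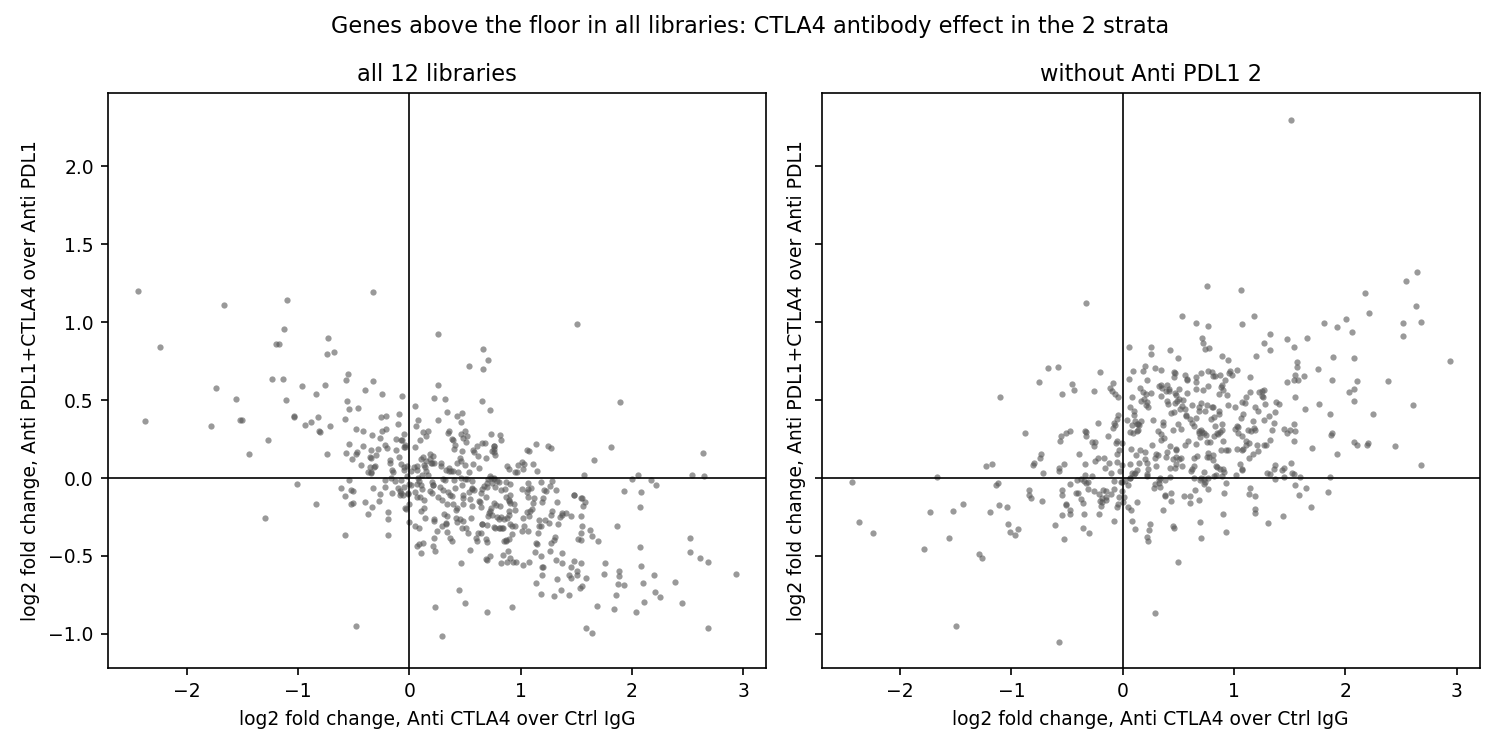
Each point is 1 of 519 genes above the floor in all libraries, with its log2 fold change for Anti CTLA4 over Ctrl IgG (horizontal axis) and for Anti PDL1+CTLA4 over Anti PDL1 (vertical axis). With all 12 libraries (left panel) 29.1% of the genes have the same sign on both axes, and without Anti PDL1 2 (right panel) it is 76.7%.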

How the data were processed

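Per the labels, total RNA of fixed tumours was measured on the nCounter mouse IO360 panel, with each library from 1 mouse. The deposited values are signal, normalized counts that the authors made with 1 factor per library and a floor of 20. The sources used here name no software or method. Each factor was recovered as the step of which at least 99.4% of values above the floor are whole multiples, within 0.0075. Of 770 names, 764 matched current RefSeq mouse symbols (GRCm38.p6) and 6 matched synonyms.

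On a log2 scale with a pseudocount of 1, limma (3.58.1; R 4.3.3) fitted each gene with a trended prior variance and terms for anti-CTLA4 and anti-PDL1 (9 residual degrees of freedom). Tests were two-sided and adjusted by the Benjamini-Hochberg method over 770 genes, at a threshold of 0.05. Strata and interaction come from a fit with 1 mean per group. On simulated data with 770 genes, 200 of them changed, the main-effect fit recovered 22.1% of changes of 0.5 log2 units, 55.7% of changes of 1 and 88.6% of changes of 2. Recovery was not tested separately for genes with libraries at the floor or for tumours of unlike liver content.

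The 34 gene lists, the genes and the comparison were chosen with earlier results of these data known. Named genes were the 8 smallest p-values per direction among genes above the floor in at least 9 libraries (no gene passed), the 2 smallest of each list, the 4 smallest of the interaction and 30 fixed genes, of which 1 is not reported here. Others are marked. Lists were described, not tested. Same-numbered mice of different groups were checked for pairing: their deviations from group means correlated at -0.61 to 0.75 over 519 genes, above 0.1 in 11 of 18 pairs. With correlations of both signs, the check does not decide whether numbers pair the mice. The main fit used no pairing. Counting error and the number of mice limit the precision. Other scalings, filters, floors, blocks and left-out libraries were tried.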

Additional observations from a re-analysis of the deposited data

Results flagged for a closer look

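A value is named here where its gap to the nearest of the 6 in its arm exceeded Dixon's 95% critical value. Chance flags about 1 in 20 groups of normal values. That rate does not apply where most of the 6 values are listed at the floor, and the genes below are not independent of each other. In the 6 libraries without anti-CTLA4, the tumour Anti PDL1 2 stood far above the other 5 in liver genes, with 455655 normalized counts of Apoe, 22549 of Arg1 and 43882 of Fbp1. It did so in antigen presentation and interferon genes, with 134400 of B2m, 4274 of Psmb9, 1927 of Tap1, 8043 of H2-Aa, 7402 of H2-Ab1, 798 of Herc6, 712 of Cxcl9 and 424 of Cd274. The same holds for Slamf7 at 77.7, Cd3e at 153, Icos at 174, Cd86 at 384, Cxcr3 at 75.6, Cx3cl1 at 65.1 and Dll4 at 239.5. It holds too for Tnfrsf14 at 1458, Casp8 at 1030 and Myc at 523. Whether the liver content of that tumour bears on the other genes was not tested.

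In the 6 libraries with anti-CTLA4, no single library held most such values. Anti CTLA4 1 stood apart in Twist2 (60.7) and Ccl1 (47.2), Anti CTLA4 2 in Fbp1 (53252) and Anti CTLA4 3 in S100a9 (878). Anti PDL1+CTLA4 1 stood apart in Cd84 (313) and Prf1 (25.7), and Anti PDL1+CTLA4 3 in Cd8a (26.6) and Ceacam3 (23.7), where the other libraries were at or near the floor.

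In 10 genes the listed values passed the interaction test of anti-CTLA4 with anti-PDL1. Libraries at the floor entered as 20, so that the sizes are of listed values and estimate no change, and with a common floor 0 genes passed. In log2 units they were 1.68 for Fam124b, 1.49 for Dkk1, 1.14 for Cd70, 0.99 for Jup, 0.87 for Il17a, 0.82 for Ifng, 0.77 for Il6, 0.77 for Pnoc, 0.74 for Tcl1 and 0.50 for Tnfrsf17. In each of them libraries of the antibody groups lay at the floor.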

How the results depend on the processing

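The count of genes past the threshold was 0 in each direction for the pooled comparison and stayed 0 under most settings. Exceptions were the fit with 1 mean per group, with 10 lower (all with Ctrl IgG above every other library), quantile normalization, with 1 lower (Twist2), and mice without anti-PDL1 alone, with 10 lower. The last 10 included Ccnd3, which lay above the floor in every library. With 1 library left out in turn the count ran from 0 to 1 higher and was 0 lower; the 1 was Slamf7, without Anti PDL1 2. The replicate number as a block gave 0 genes. The interaction count of 10 was 0 with genes above the floor everywhere, with the filter at 50, with a common floor and with median scaling, 1 after quantile normalization, 5 with sample weights and 3 without the 4 libraries of high factor. It ran from 5 to 24 with 1 library left out, and the cause was not tested. It was 24, 18 and 16 without Ctrl IgG 3, 2 and 1, 16 without Anti CTLA4 3, and 5 without Anti CTLA4 2 or Anti PDL1+CTLA4 3. Over 28 settings 40 of 75 followed genes kept the sign of their log2 fold change in each setting that tested them, Slamf7 (0.26 to 1.30), Prdm1 (0.33 to 0.78) and Pfkfb3 (0.30 to 0.86) among them. Slamf7, Prdm1 and Pfkfb3 were named for small p-values in the main fit, and all settings reuse its libraries. Their kept signs are therefore no independent support. A count test in edgeR, planned on recovered counts, was not run. The exclusion of the 4 libraries was chosen after seeing the data, and so was the choice to report results without Anti PDL1 2 in detail. Values near the floor, and 6 mice per arm of unlike liver content, limit what could be seen.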
